A study of Mus musculus with 10 samples.

Results

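The cells described here carried transcripts of Ccr2 or Ear2, genes known from monocytes, among microglia sorted from cultured mouse brain slices. They were chosen by their own counts. Among slice cells with at most 5% mitochondrial UMIs, at least 400 genes and at most 30000 UMIs (unique molecular identifiers, each standing for 1 captured transcript), a cell was taken when it held at least 2 UMIs of Ccr2 and Ear2 together and when S100a8 and S100a9 made up under 1% of its UMIs. Of 6634 slice cells that passed the quality limits, and of 19059 in all 10 libraries, 82 met the rule and are called Ccr2/Ear2 cells below. The 6456 slice cells with 0 UMIs of both genes served as the comparison, and 91 cells with 1 UMI lay between them.

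The study cultured organotypic brain slices, thin coronal sections that keep the local tissue architecture, from neonatal C57BL/6 pups within the first days of life. The slices carried no transgene and received no challenge, were fed a medium with horse serum and PDGF, and were sampled after 1 day, 1 week or 3 weeks, with 2 libraries at each time. Adult brain and a mixed glial culture, with 2 libraries each, completed the series and were not part of the comparison. Live cells were sorted as CD11b high and CD45 intermediate, a microglial gate that removes many but not all blood monocytes, so shares below are shares of the sorted cells. Several slices could be pooled for one preparation, and how many animals stood behind a library was not given in the sources used here. Replicate 1 of the 3 weeks slices carried another study number in the labels than the remaining slice libraries.

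Ccr2 encodes the receptor for the chemokines Ccl2, Ccl7 and Ccl12 and lets classical monocytes leave the bone marrow and enter inflamed tissue. Ear2 encodes a secreted ribonuclease of the eosinophil-associated family that is also made by monocytes. Classical monocytes carry high Ccr2 and Ly6C, whereas non-classical monocytes, which patrol the vessel wall and depend on the nuclear receptor Nr4a1, carry little of either and express genes such as Treml4, Ace and Spn. Microglia derive from yolk sac precursors, normally lack Ccr2, and are recognised by P2ry12, Tmem119, Gpr34 and the complement C1q chains.

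Ear2 UMIs could not be assigned to a single gene with certainty, because the Ear family contains near copies. The 250 bases before the start site are shown for Ear2 and Ear1 (RefSeq, GRCm38.p6) to make the likeness of the Ear genes visible. Capitals mark the letters TTGCNNAA, searched on both strands, letters like those of the site bound by C/EBP factors. The windows are chr14:44102404-44102653 on the plus strand for Ear2 and chr14:43819640-43819889 on the minus strand for Ear1.
Ear2: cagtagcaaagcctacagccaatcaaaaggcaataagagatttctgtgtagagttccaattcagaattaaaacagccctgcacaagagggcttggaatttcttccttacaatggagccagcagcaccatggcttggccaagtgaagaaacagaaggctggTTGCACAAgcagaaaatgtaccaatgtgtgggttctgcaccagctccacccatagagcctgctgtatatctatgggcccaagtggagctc
Ear1: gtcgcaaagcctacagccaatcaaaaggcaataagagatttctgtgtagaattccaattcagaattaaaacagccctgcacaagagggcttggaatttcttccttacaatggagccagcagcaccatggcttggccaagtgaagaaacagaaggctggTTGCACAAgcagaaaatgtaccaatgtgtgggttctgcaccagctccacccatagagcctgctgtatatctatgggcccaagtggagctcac
In the Ear windows 246 of 248 aligned bases were identical, and so were 296 of the last 300 bases of the transcripts, the end that this 3′ assay reads. Ear1 itself was listed with 3 UMIs in the Ccr2/Ear2 cells of replicate 1 and 4 in those of replicate 2, and with 0 in the comparison cells of both, so these few UMIs may belong to Ear2. The TTGCNNAA letters stood in both windows. Over 32851 mouse promoter windows of the same length 9.56% held them, and 4 of the 12 windows available for the genes ranked highest below did so (Adgre4, Ear2, Klra2 and Rnase6). GAGGAA, letters like those of the PU.1 site, stood in 6 of the 12 and in 23.3% of all windows, and AAAGGTCA, letters like those of the NR4A site, in 0 of the 12 and 1.34% of all. These counts describe letters and no binding.

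The Ccr2/Ear2 cells were almost all found in slices cultured for 1 day. There, 34 of 518 cells met the rule in replicate 1 (6.56%, exact binomial 95% interval 4.59 to 9.05%) and 46 of 1014 in replicate 2 (4.54%, 3.34 to 6.00%), a mean of 5.55% ± 1.43 (SD, n = 2). At 1 week 1 of 148 cells met it in replicate 1 (0.676%, 0.0171 to 3.71%) and 0 of 61 in replicate 2, which allows a share of up to 4.92% by the limit of 3 counts and 5.87% by the exact interval. At 3 weeks the counts were 1 of 1153 cells in replicate 1 (0.0867%, 0.00220 to 0.482%) and 0 of 3740 in replicate 2, which allows up to 0.0802% and 0.0986% by the same measures. The 1 day and 3 weeks intervals did not overlap, also without the 3 weeks library that carries the other study number, whereas each of the small 1 week libraries overlapped at least 1 library of 1 day and could not be told from it at this depth. With 2 libraries a time, the smallest two-sided exact permutation p between a pair of times is 0.333, so that test could not pass 0.05, and no model of the shares was fitted. All intervals and limits cover counting error only.

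**Figure D1:**
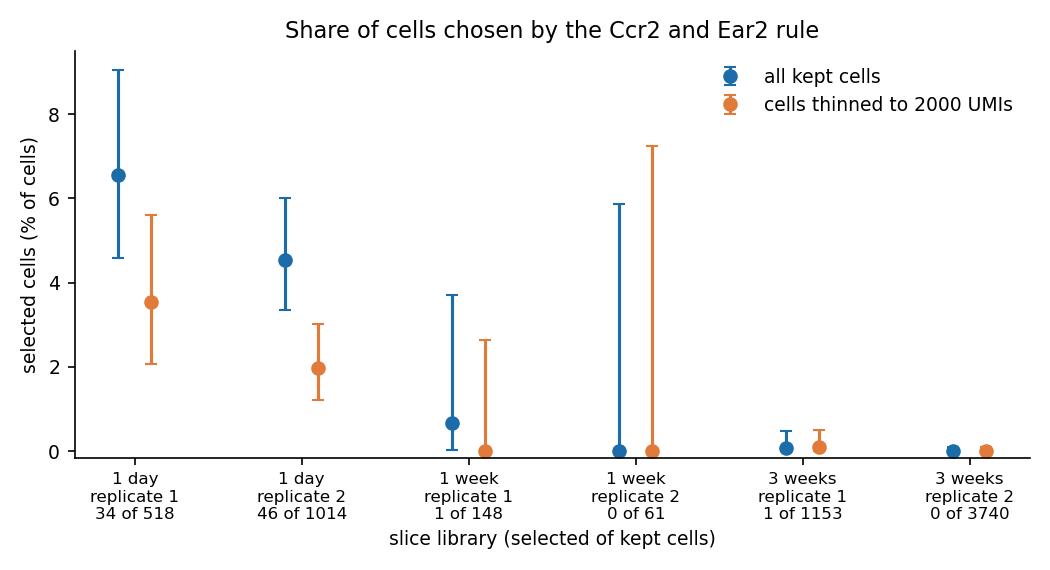
Share of cells that met the Ccr2 and Ear2 rule (y axis, % of cells) in each of the 6 slice libraries (x axis, with the number selected of the cells kept), for all kept cells and after every cell was thinned to 2000 UMIs. Points are single libraries and bars exact binomial 95% intervals. The 1 day libraries stand at 6.56% and 4.54%, and no later library exceeds 0.676%.

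Depth differed between libraries, and thinning every cell to 2000 UMIs lowered the shares at 1 day, which still exceeded those at 3 weeks. After thinning, 17 of 481 cells (3.53%) and 20 of 1014 (1.97%) met the rule at 1 day, 0 of 138 and 0 of 49 at 1 week, and 1 of 1124 (0.0890%) and 0 of 3624 at 3 weeks. The summed UMIs of the kept cells were 3661690 and 9539163 at 1 day, with medians of 6452.5 and 8335 UMIs per cell.

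Transcripts set free from broken cells can also give UMIs, so cells with S100a8 and S100a9 at 1% of UMIs or more (S100-rich cells, after these neutrophil genes) were used to gauge them. In replicate 1, 0 of 68 such cells held a Ccr2 UMI and 1 of 68 an Ear2 UMI, against 27 and 30 of 450 cells below the S100 limit (6.00% and 6.67%). In replicate 2 the S100-rich cells held a Ccr2 UMI in 4 of 114 cases (3.51%) and an Ear2 UMI in 6 of 114 (5.26%), near the 5.56% and 6.11% of the 900 cells below the limit, so a single UMI there cannot be told from background. At 2 or more UMIs the counts were 2 for Ccr2 (1.75%) and 1 for Ear2 (0.877%) among the 114, against 28 (3.11%) and 18 (2.00%) among the 900, so part of the cells selected in replicate 2 may also be background. In 1 week replicate 1 the order was the opposite, with a Ccr2 UMI in 3 of 24 S100-rich cells (12.5%) against 5 of 124 below the limit (4.03%) and an Ear2 UMI in 3 of 24 against 0 of 124. At 1 day the S100-rich cells were also shallower, with median UMI counts of 2224 and 4925 against 6986 and 8901.5.

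Within the 80 cells of the 1 day slices, Ccr2 and Ear2 were mostly carried by different cells. Ccr2 alone was found in 10 cells of replicate 1 and 24 of replicate 2, Ear2 alone in 13 and 15, and both genes in 11 and 7. The sum of their UMIs ranged from 2 to 17 per cell in each library, with medians of 4 and 5. At the threshold itself, 8 and 10 cells held exactly 2 UMIs, and 3 and 6 cells held 10 or more. The rule requires the sum and thereby favours cells in which 1 gene is high when the other is at 0, so the r of -0.70 between the genes over these 80 cells is given only as a description.

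All gene levels below are for the 1 day slices, because the later libraries together held only 2 Ccr2/Ear2 cells. A level is the gene's summed UMIs in a class of cells of a library, scaled to 1000000 UMIs of that class (CPM), a scale on which levels of different genes are comparable because the assay counts 3′ ends. A gene was called higher or lower when its level differed past 2-fold in the same direction in both libraries. Because the cells were selected on their counts, these calls are descriptions and no test was made. A gene nearly absent from the comparison cells could be considered only through its counts in the Ccr2/Ear2 cells, so counts of higher genes describe the genes considered and not whole lists. A gene nearly absent from the Ccr2/Ear2 cells could be considered only through the counts expected from the comparison cells. Counts of lower genes are limited in the same way. Of 6313 genes with enough counts, 557 were higher (8.82%) and 303 lower (4.8%) in the Ccr2/Ear2 cells than in the comparison cells. Of the 266 genes past 4-fold higher in replicate 1, 234 were past 2-fold higher in replicate 2 (88.0%, against 13.1% of all genes). Of the 330 past 4-fold lower in replicate 1, 172 were past 2-fold lower in replicate 2 (52.1%, against 8.21% of all).

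Part of the comparison cells were S100-rich. They numbered 67 of 471 in replicate 1 and 105 of 907 in replicate 2, and the neutrophil list, without S100a8 and S100a9, summed to 16098 and 57502 CPM in them. Against the comparison cells below that limit, 612 of 6348 genes were higher (9.64%) and 322 lower (5.07%). Where a list's calls differ between the comparisons, both are given. The Ccr2/Ear2 cells themselves held a median of 0.0481% of their UMIs in S100a8 and S100a9 in replicate 1 and 0.366% in replicate 2, close to the 0.0502% and 0.347% of those comparison cells. Their median UMI counts were 6265 and 6489.5, against 7148.5 and 9118.5, and their median mitochondrial shares 1.62% and 1.49%, against 1.13% and 1.14%.

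Genes of both monocyte lists were higher in the Ccr2/Ear2 cells. Of the non-classical monocyte list, 10 of the 12 genes considered were higher (Ace, Adgre4, Cd300e, Dusp16, Eno3, Gngt2, Itgal, Nr4a1, Spn and Treml4) and none lower, beside 8.82% of all genes. The list's median log2 ratio was 3.74, beside 0.01 over all genes considered. Its summed level, Ear2 left out, was 2234 CPM in replicate 1 and 1725 CPM in replicate 2, against 498 and 652 CPM in all comparison cells and 402 and 427 CPM in those below the S100 limit, where Pglyrp1 was higher as well. In the S100-rich cells the list summed to 2286 and 3208 CPM, of which Pglyrp1, a peptidoglycan-binding protein that neutrophils also make, gave 1565 and 2886 CPM. Ace, Adgre4, Cd300e and Eno3 were at 0 there in replicate 1 and at most 2.88 CPM in replicate 2. Of the classical list, 5 of 10 were higher (F13a1, Gda, Hp, Lyz2 and Plac8) and none lower, and below the S100 limit Ifitm6 joined them. The classical sums were 7679 and 8840 CPM, against 1529 and 2661 CPM in all comparison cells and 1291 and 1645 CPM in those below the limit. Ly6c2, the Ly6C gene that defines classical monocytes, was at 0 CPM in replicate 1 and 20.1 CPM in replicate 2, against 0.90 and 46.5 CPM in all comparison cells and 0 and 11 CPM in those below the S100 limit, and was called higher against neither. The classical list reached 5966 and 14249 CPM in the S100-rich cells, which hold several of its genes.

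**Figure D2:**
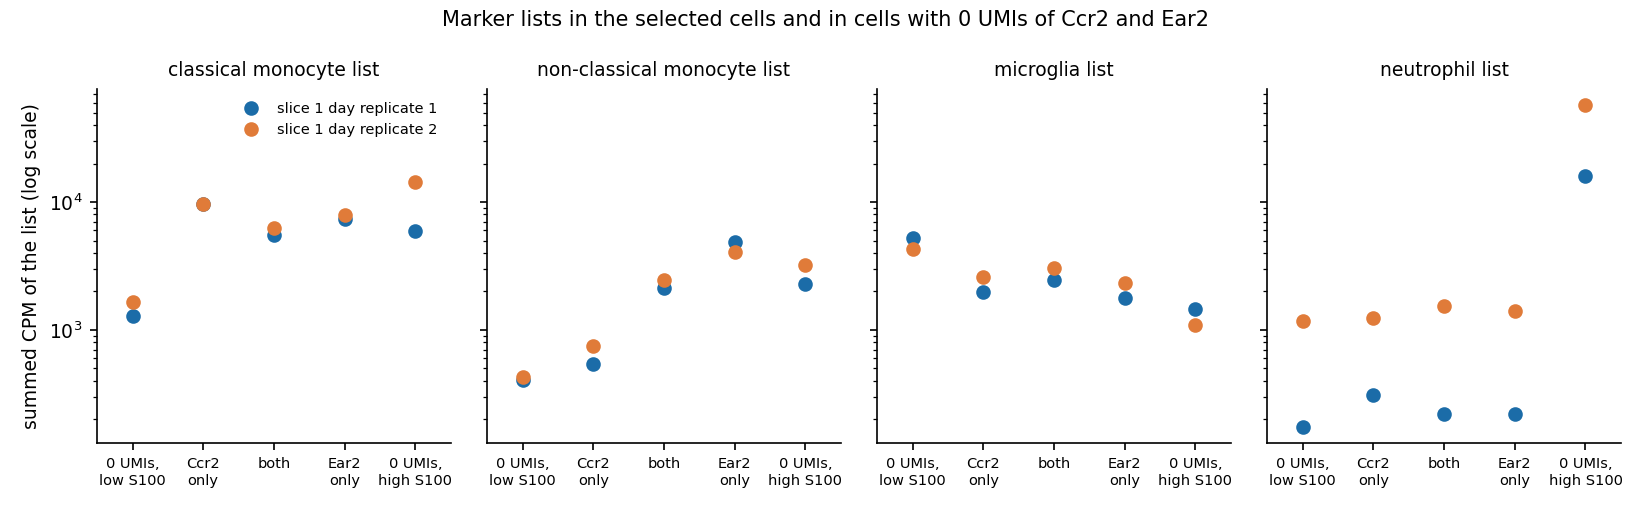
Summed level (y axis, CPM on a log scale) of the classical monocyte, non-classical monocyte, microglia and neutrophil marker lists, a panel each, in comparison cells below the S100 limit, cells with Ccr2 alone, both genes or Ear2 alone, and S100-rich comparison cells (x axis). Points are the 2 libraries of the 1 day slices, and the non-classical list stands at 402 and 427 CPM in the first class and at 4838 and 4034 CPM in cells with Ear2 alone.

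Of 12 microglial genes considered, 6 were lower (Fcrls, Gpr34, Olfml3, P2ry12, Siglech and Sparc) and none higher, beside 4.8% and 8.82% of all genes, and the calls were the same in number below the S100 limit. The list summed to 2078 and 2593 CPM against 5008 and 4038 CPM in all comparison cells, and to 1447 and 1088 CPM in the S100-rich cells of the same libraries, so the part of free RNA in this sum was not tested. Gpr34, a lysophosphatidylserine receptor of microglia, was at 17.3 and 28.7 CPM against 218 and 162 CPM. Sparc, a secreted matrix protein, was at 13 and 77.6 CPM against 460 and 291 CPM. P2ry12, the ADP receptor by which resting microglia are usually identified, was at 64.9 and 37.4 CPM against 171 and 79.5 CPM, and was thus also low in the comparison cells at this time. Tmem119 (99.6 and 86.2 CPM against 105 and 44.4) and the fractalkine receptor Cx3cr1 (398 and 466 CPM against 500.3 and 513) did not differ past 2-fold. Csf1r, the receptor for colony-stimulating factor, was at 779 and 667 CPM against 658 and 494 CPM and stayed within 2-fold as well.

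The other marker lists are read against the same shares, 8.82% higher and 4.8% lower of all genes, or 9.64% and 5.07% below the S100 limit. Of the dendritic cell list 3 genes were considered, of which H2-DMb2 (21.6 and 14.4 CPM against 4.51 and 2.21) was higher and Fscn1 and Siglech lower. Another 9 genes of that list, among them Flt3, Zbtb46, Xcr1 and Clec9a, were at 0 in the Ccr2/Ear2 cells of both libraries, and of the border-associated macrophage list 6 were at 0, among them Lyve1 and Cd163. In the latter list F13a1, the A subunit of coagulation factor XIII, was higher, and it belongs to the classical monocyte list as well, while Folr2, Mrc1 and Pf4 were lower. No gene of the T or NK cell and neuron lists had enough counts to be considered, and of the progenitor list Kit, Mpo, Elane and Ctsg were at 0. Of 11 neutrophil genes considered, 5 were lower than in all comparison cells (Lcn2, Mmp8, Ngp, Retnlg and Stfa2). Against those below the S100 limit none was lower and 2 were higher (Cxcr2 and G0s2), and the sums were 255 against 174 CPM in replicate 1 and 1314 against 1161 CPM in replicate 2. Erythroid genes summed to 3802 CPM in the comparison cells and 77.9 CPM in the Ccr2/Ear2 cells of replicate 1. The table of replicate 2 lists Hbb-bs and Hba-a2 alone of this list, with no UMI in either set of cells.

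Among the single genes, 13 besides Ccr2 and Ear2 ranked highest by median log2 ratio, among them Adgre4, Ace and Treml4 of the non-classical list. Adgre4, an adhesion receptor related to F4/80, was at 108 CPM in replicate 1 and 92.0 CPM in replicate 2, against 0.60 and 1.86 CPM in the comparison cells, a median log2 ratio of 6.40 ± 1.13 (SD, n = 2). Ace, the angiotensin-converting enzyme, was at 121 and 86.2 CPM against 2.10 and 1.74 CPM (log2 ratio 5.69 ± 0.12). Treml4, a receptor of the TREM family, was at 164 and 144 CPM against 6.91 and 5.0 CPM (4.70 ± 0.20). In all 3 genes both libraries of Ccr2/Ear2 cells lay far above both libraries of comparison cells. Napsa, an aspartic protease, was at 429 and 331 CPM against 12.9 and 17.4 CPM. It had a UMI in 82.4% and 78.3% of the Ccr2/Ear2 cells, against 5.73% and 10.5% of all comparison cells. The shares were 2.48% and 5.86% in comparison cells below the S100 limit. In the S100-rich cells they were 25.4% and 45.7%, with levels of 130 and 127 CPM. Rnase6, a ribonuclease of the same superfamily as Ear2, was at 190 and 184 CPM against 6.91 and 4.07 CPM. The cyclin Ccnd2 (303 and 239 CPM against 12.3 and 8.14), the signal-regulatory receptor Sirpb1c (584 and 313 CPM against 26.4 and 11.4), the adaptor Sh2d1b1 (117 and 121 CPM against 4.81 and 5.11) and the Ly49 family receptor Klra2 (143 and 92.0 CPM against 5.41 and 5.11) belonged to the same set. The S100-rich cells held Sirpb1c at 360 and 67.8 CPM, with a UMI in 44.8% and 21.0% of them. Klra2 was at 47.3 and 34.6 CPM there. Adamdec1, a metalloprotease, and Tmem51 completed it with log2 ratios of 5.60 and 4.68.

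Mcpt8 and Prss34, serine proteases of basophils and mast cells, also ranked among the highest 15, but through a single cell. One Ccr2-positive cell of replicate 2, with 7966 UMIs, held all 116 Mcpt8 and all 103 Prss34 UMIs of the Ccr2/Ear2 cells, as well as all 12 UMIs of Cpa3, a mast cell carboxypeptidase. Both genes were at 0 in replicate 1, where the ratio rests on the 0.5 count added to each sum.

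**Figure D3:**
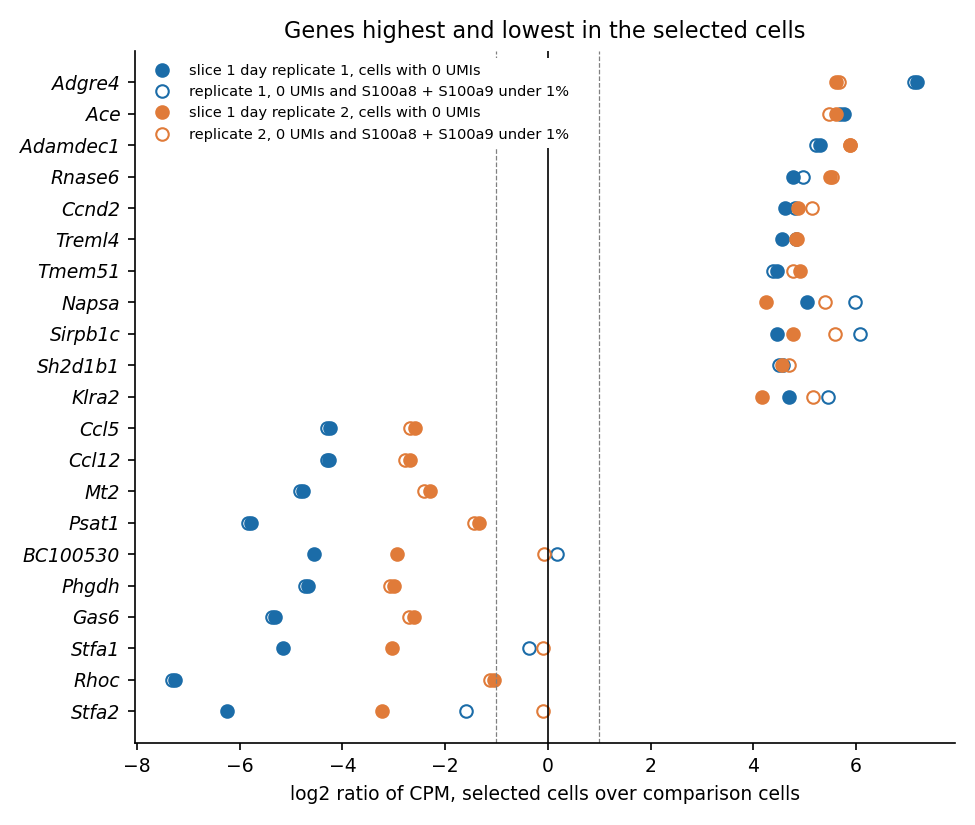
Log2 ratio of the level in Ccr2/Ear2 cells over that in comparison cells (x axis) for the 21 genes among the 15 highest and 10 lowest that are neither rule genes nor held by a single cell (y axis). Points are the 2 libraries of the 1 day slices, against all comparison cells (filled) and those below the S100 limit (open), and dashed lines mark 2-fold. Adgre4 and Ace, with medians of 6.40 and 5.69, stand at the top, and the open points of BC100530 and Stfa1 lie near 0.

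Plac8, a small cysteine-rich protein abundant in monocytes, was at 1013 CPM in replicate 1 and 782 CPM in replicate 2 against 30.6 and 61.1 CPM in the comparison cells, and had a UMI in 79.4% and 80.4% of the Ccr2/Ear2 cells. Lyz2, lysozyme M, was at 5450 and 6261 CPM against 881 and 1441 CPM. The S100-rich cells also carried Plac8 (118 and 444 CPM), Lyz2 (1181 and 5856 CPM) and Treml4 (29.5 and 4.32 CPM). Hp, haptoglobin, was at 493 and 520 CPM against 164 and 242 CPM. Gngt2, a G protein subunit, was at 909 and 687 CPM against 158 and 127 CPM. Of 12 ribonuclease, lysozyme and antimicrobial genes considered, Lyz1, Lyz2 and Rnase6 were higher and Lcn2, Ngp, Slpi and Wfdc21 lower, beside 8.82% and 4.8% of all genes, whereas below the S100 limit none was lower and Wfdc17 was higher as well, beside 5.07% and 9.64%. Nr4a1, the nuclear receptor on which non-classical monocytes depend, was at 95.2 and 46.0 CPM against 1.20 and 2.79 CPM.

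Several adhesion genes were higher. Of 16 considered genes of adhesion and migration, 9 were higher (Cd44, Itga4, Itgal, Itgav, Itgax, Itgb2, Itgb7, Pecam1 and Spn), 7 did not pass 2-fold and none was lower, beside 8.82% of all genes higher, with a list median log2 ratio of 1.56. Against comparison cells below the S100 limit, 3 of 14 were higher in the cells with Ccr2 alone, beside 6.57% of all genes, and 6 of 12 in those with Ear2 alone, beside 15%, where Fn1 was lower. The genes considered differed between these subgroups. Itga4, the alpha chain of the integrin VLA-4, was at 164 and 161 CPM against 8.11 and 8.25 CPM (log2 ratio 4.31 ± 0.03). Itgal, the alpha chain of LFA-1, was at 117 and 77.6 CPM against 11.7 and 9.07 CPM, and its partner chain Itgb2 at 610 and 506 CPM against 208 and 198 CPM. Cd44, the hyaluronan receptor, was at 208 and 236 CPM against 74.2 and 67.4 CPM. Of 8 chemoattractant receptors considered besides Ccr2, the formyl peptide receptors Fpr1 (160 and 152 CPM against 18.3 and 28.2) and Fpr2 (130 and 112 CPM against 22.8 and 27.8) were higher, although the S100-rich cells held more of both (242 and 208 CPM of Fpr1, 402 and 270 CPM of Fpr2), and Ccr1 (203 and 377 CPM against 89.6 and 71.7) and Cxcr2 only against comparison cells below the S100 limit.

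Most chemokines considered were lower. Of 14 considered, 11 were lower (Ccl2, Ccl3, Ccl4, Ccl5, Ccl7, Ccl9, Ccl12, Cxcl2, Cxcl10, Cxcl16 and Pf4) and none higher, although Cxcl3 was higher below the S100 limit, beside 4.8% of all genes, with a list median log2 ratio of -2.56. Among them Ccl2, Ccl7 and Ccl12 are ligands of Ccr2. Ccl12 was at 56.3 CPM in replicate 1 and 276 CPM in replicate 2 against 1120 and 1785 CPM. Ccl2 was at 51.9 and 103 CPM against 431 and 608 CPM, and Ccl7 at 4.33 and 31.6 CPM against 105 and 133 CPM. Ccl3 was at 39 and 371 CPM against 774 and 885 CPM, so replicate 2 lay much closer to its comparison cells than replicate 1. The S100-rich cells held Ccl12 at 667 and 258 CPM and Ccl3 at 219 and 166 CPM, which shows the level of chemokine transcripts in other cells of the same libraries. The part of free RNA in the levels of the Ccr2/Ear2 cells was not tested.

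Of 10 complement and Fc receptor genes considered, Cfp, Fcer1g and Fcgr4 were higher, C1qa, C1qb and C1qc lower and 4 neither, beside 8.82% and 4.8% of all genes. Fcgr4, the Fc receptor typical of non-classical monocytes, was at 757 and 420 CPM against 78.1 and 61.4 CPM, and Cfp, properdin of the alternative complement pathway, at 467 and 325 CPM against 53.8 and 60.7 CPM. Fcer1g, the common signalling chain of Fc receptors, was at 8860 and 6373 CPM against 2928 and 2802 CPM. The chains of C1q, the opening component of the classical pathway, were lower, with C1qa at 485 and 819 CPM against 3323 and 2851 CPM (log2 ratio -2.28 ± 0.69). C1qa was at 301 and 509 CPM in the S100-rich cells of the same libraries, below the Ccr2/Ear2 cells in both.

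Of 17 genes of lysosome, lipid handling and the disease-associated programme of microglia, Apoe and Itgax were higher and Cd63, Gpnmb, Lpl and Spp1 lower, beside 8.82% and 4.8% of all genes, so the count of higher genes was near that of all genes. Apoe, apolipoprotein E, was at 15063 and 13437 CPM against 6934 and 6130 CPM, a ratio that was almost equal in the libraries (log2 1.13 ± 0.01). Spp1, osteopontin, was at 1580 and 4114 CPM against 12306 and 11985 CPM. Lpl, lipoprotein lipase, was at 126 and 926 CPM against 2981 and 2935 CPM. Gpnmb was at 0 CPM in the Ccr2/Ear2 cells of both libraries against 21.0 and 23.4 CPM. Of the lower genes, Cd63, Lpl and Spp1 were nearer to the comparison cells in replicate 2 than in replicate 1.

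Of 16 transcription factors considered, 5 were higher and 1 lower, beside 8.82% and 4.8% of all genes. Cebpb, a C/EBP factor of the myeloid lineage, was at 1424 and 1529 CPM against 434 and 437 CPM, and Runx3, a Runt factor, at 26.0 and 37.4 CPM against 7.21 and 4.65 CPM. Mef2c, a factor of the microglial programme, was at 117 and 129 CPM against 355 and 328 CPM. The myeloid factors Spi1 (935 and 842 CPM against 579 and 550) and Irf8 (364 and 399.6 CPM against 421 and 362) stayed within 2-fold.

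Of the S100 and annexin list 5 of 14 were higher and none lower, and below the S100 limit Anxa1 was higher as well, beside 8.82% and 9.64% of all genes. The list summed to 4722 and 6776 CPM in the Ccr2/Ear2 cells and to more, 9735 and 12204 CPM, in the S100-rich cells. S100a4, a calcium-binding protein of motile cells, was at 190 and 207 CPM against 13.8 and 13.8 CPM. S100a6 (628 and 957 CPM against 164 and 264), S100a11 (944 and 1144 CPM against 318 and 426), Crip1 and Ahnak were the others. Of 7 growth factor receptors considered, Csf2ra and Csf2rb, the chains that bind GM-CSF, and Tgfbr1 were higher, with log2 ratios of 1.21, 1.42 and 1.49, beside the same 8.82% of all genes.

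Interferon, cytokine and antigen presentation genes showed no common direction. Of 11 interferon-stimulated genes, Ifitm3 (1840 and 1193 CPM against 250 and 252) and Zbp1 were higher, and Bst2, Ifit1, Ifit3 and Rsad2 lower, beside 8.82% and 4.8% of all genes. Il1b, interleukin 1 beta, was at 203 and 135 CPM against 66.1 and 54.4 CPM, whereas its antagonist Il1rn was at 4.33 and 8.62 CPM against 50.5 and 28.1 CPM. Il1r2, a decoy receptor, was lower against all comparison cells and not against those below the S100 limit. Of 4 MHC class II genes considered only H2-DMa was higher (225 and 115 CPM against 49.0 and 27.1), and H2-Aa was at 0 CPM in both libraries. The invariant chain Cd74 was at 90.9 and 164 CPM against 375 and 259 CPM and did not pass 2-fold in replicate 2.

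Genes of the dividing cell were low. Of 15 cell cycle genes considered, 11 were lower and none higher, beside 4.8% of all genes lower, with a list median log2 ratio of -2.61. The filter favoured this count, since a gene without UMIs in the Ccr2/Ear2 cells, such as Ccnb2, was considered only through the comparison cells. Top2a, a topoisomerase of dividing cells, was at 0 and 5.75 CPM against 18.6 and 39.6 CPM. Mki67, the Ki-67 proliferation antigen, had 0 UMIs in the 80 Ccr2/Ear2 cells of the 1 day slices, against 10.5 and 19.9 CPM in the comparison cells.

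The 10 genes ranked lowest were Gas6, Phgdh, Psat1, Rhoc, Mt2, Stfa1, Stfa2, BC100530 and the chemokines Ccl5 and Ccl12. Gas6, a ligand of the TAM receptors, was at 4.33 and 46.0 CPM against 257 and 288 CPM. Phgdh and Psat1, enzymes of serine synthesis, were at 4.33 and 17.2 CPM and at 0 and 54.6 CPM, against 165 and 148 CPM and 118 and 141 CPM. The GTPase gene Rhoc was at 0 CPM in replicate 1 and 132 CPM in replicate 2, against 334 and 275 CPM, and the metallothionein Mt2 at 13 and 80.5 CPM against 411 and 404 CPM. In Gas6, Phgdh, Psat1, Rhoc and Mt2 replicate 2 held more than replicate 1. The stefin A genes Stfa1, Stfa2 and BC100530 were lower against all comparison cells, which include the S100-rich cells, and were not called lower against those below the S100 limit. There Stfa1 and BC100530 stayed within 2-fold in both libraries. Stfa2 was past 2-fold lower in replicate 1 (0 against 6.33 CPM) and not in replicate 2 (54.6 against 59.4 CPM).

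The cells with Ear2 alone and those with Ccr2 alone differed in the genes that separate monocyte types. Of 2361 genes with enough counts, 69 were higher in the cells with Ear2 alone (2.92%) and 84 in the cells with Ccr2 alone (3.56%) in both libraries. Of the 13 non-classical genes besides Ear2, 9 reached the minimum of 30 counts and were higher with Ear2 alone (Ace, Adgre4, Cd36, Eno3, Gngt2, Itgal, Nr4a1, Pglyrp1 and Treml4). Ace, Adgre4, Eno3, Itgal, Nr4a1 and Treml4, among others, reached it mainly through the cells with Ear2 alone, where they were high, so the filter favoured this count, which describes those genes and not the list. Ace was at 233 CPM in replicate 1 and 251 CPM in replicate 2 with Ear2 alone, against 0 and 8.98 CPM with Ccr2 alone. Treml4 was at 372 and 326 CPM against 10.7 and 58.4 CPM, and Nr4a1 at 295 and 150.3 CPM against 0 and 4.49 CPM. Plac8 was at 1613 and 1879 CPM with Ear2 alone and 182 and 346 CPM with Ccr2 alone, Cebpb at 2388 and 2919 against 867 and 1064 CPM, and Itga4 at 341 and 476 against 53.5 and 53.9 CPM. The subgroups also differed in depth, with median UMI counts of 4835 and 5345 with Ear2 alone and 7561.5 and 7737.5 with Ccr2 alone.

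With Ccr2 alone a different set was higher, in which the classical list was divided. Of its 7 genes considered, F13a1 and Fn1 were higher with Ccr2 alone and Gda, Ifitm6 and Plac8 with Ear2 alone. F13a1 was at 278 and 368 CPM against 15.5 and 37.6 CPM with Ear2 alone, and the 18 cells with both genes held none of it. Fn1, fibronectin, was at 567 and 876 CPM against 46.5 and 75.2 CPM, although over all Ccr2/Ear2 cells it did not differ from the comparison cells past 2-fold (329 and 618 CPM against 322 and 349). Spp1 was at 2794 and 5057 CPM against 651 and 2318 CPM, C1qc at 460 and 1177 CPM against 155 and 413 CPM, and Tmem119 at 118 and 103 CPM against 0 and 37.6 CPM. In all of these both libraries with Ccr2 alone exceeded their own libraries with Ear2 alone.

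**Figure D4:**
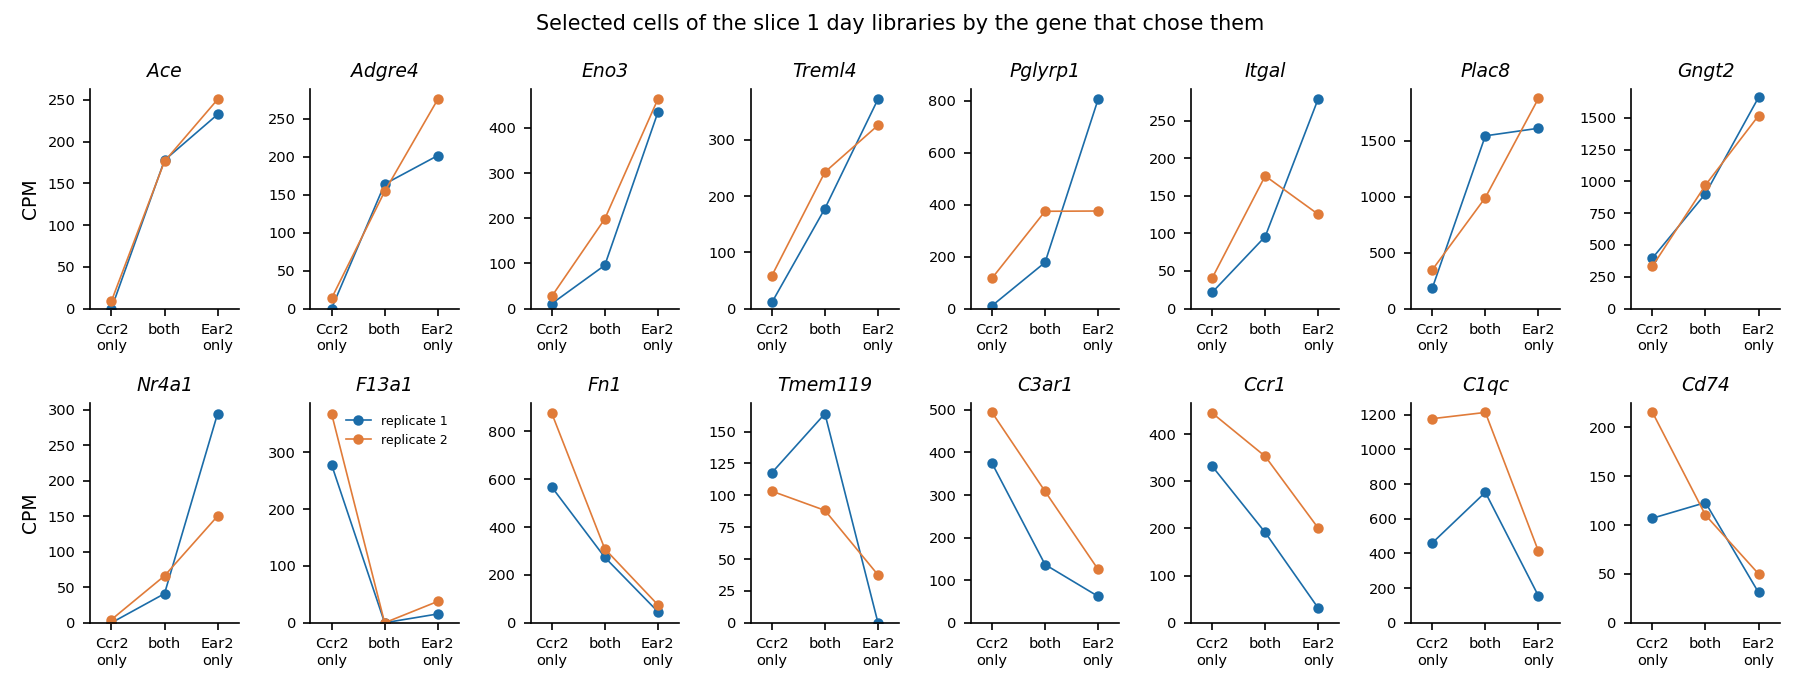
Level (y axis, CPM) of 16 genes in cells with Ccr2 alone, both genes or Ear2 alone (x axis), with a line for each of the 2 libraries of the 1 day slices. Ace and Treml4 are highest with Ear2 alone, at 233 and 251 CPM and at 372 and 326 CPM, whereas F13a1 is highest with Ccr2 alone, at 278 and 368 CPM.

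Each subgroup was also set beside the comparison cells below the S100 limit. With Ccr2 alone, 6 of 9 classical genes were higher, 2 of 5 non-classical genes were higher (Gngt2 and Itgal) with 1 lower (Cd36), and 6 of 12 microglial genes were lower, beside 6.57% higher and 4.88% lower of all genes. With Ear2 alone, 5 of 6 classical genes were higher with Fn1 lower, 10 of 11 non-classical genes were higher and 5 of 10 microglial genes were lower, beside 15% higher and 10.5% lower. The genes considered differed between the subgroups, because each needed at least 10 counts there, observed or expected from the comparison cells. Ace, Adgre4 and Nr4a1 entered the count with Ear2 alone, where they were high, and not that with Ccr2 alone. The counts thus describe the genes considered and cannot be set against each other. Of the chemokines 9 of 14 were lower and Cxcl3 higher with Ccr2 alone, and 10 of 11 were lower with Ear2 alone. The 18 cells with both genes resembled neither end fully, with Ace at 178 and 176 CPM and Fn1 at 273 and 309 CPM.

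Cell by cell, the non-classical genes other than Ear2 were read in cells thinned to 2000 UMIs. At least 3 of the 13 genes were detected in 12 of 13 cells with Ear2 alone in replicate 1 (92.3%) and 11 of 15 in replicate 2 (73.3%). With Ccr2 alone this held for 1 of 10 (10%) and 4 of 24 (16.7%), and among comparison cells below the S100 limit for 9 of 391 (2.30%) and 19 of 802 (2.37%). Without thinning the shares were 100% and 93.3%, 30% and 66.7%, and 9.16% and 28.1%. The comparison cells of the 2 libraries differed before thinning and hardly after it. Over the 80 cells, the genes whose level per cell followed Ear2 most closely were Gngt2 (r = 0.62), Cst3 (0.62), Plac8 (0.61), Metrnl (0.61) and Adgre4 (0.60), and those closest to Ccr2 were Fn1 (0.50), Apoe (0.49), Spint1 (0.48), Sepp1 (0.48) and Npc2 (0.47). These coefficients describe sparse counts of cells that share libraries and were chosen by the same genes.

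Around the threshold of the rule, cells with 1 UMI of Ccr2 or Ear2 lay between the comparison cells and the Ccr2/Ear2 cells for Plac8 and Ace but not for every gene. All values here are for cells below the S100 limit. In replicate 1 Plac8 was at 26.0 CPM in 404 cells with 0 UMIs, 289 CPM in 12 cells with 1, 943 CPM in 8 cells with 2 and 1032 CPM in 26 cells with 3 or more. In replicate 2 it was at 27.6 CPM in 802 cells, 101 CPM in 52 cells, 608 CPM in 10 cells and 857 CPM in 36 cells. Plac8 was thus already high just inside the rule. For other genes the libraries differed. In replicate 2 Ace was at 19.0 CPM at 2 UMIs and 115 CPM at 3 or more, Itgal at 19.0 and 103, and Treml4 at 76.0 and 173 CPM, whereas in replicate 1 Ace was at 82.0 and 132 CPM, Itgal at 164 and 104, and Treml4 at 184 and 159 CPM. P2ry12 in replicate 2 was at 83.7 CPM in cells with 0 UMIs and 97.0 CPM in those with 1, above the 38.0 and 37.1 CPM inside the rule. C1qa took the opposite course, from 3485 to 2370, 164 and 571 CPM in replicate 1 and from 3057 to 3010, 1122 and 688 CPM in replicate 2. Cells with 1 UMI in replicate 2 therefore carried C1qa at the level of the comparison cells.

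**Figure D5:**
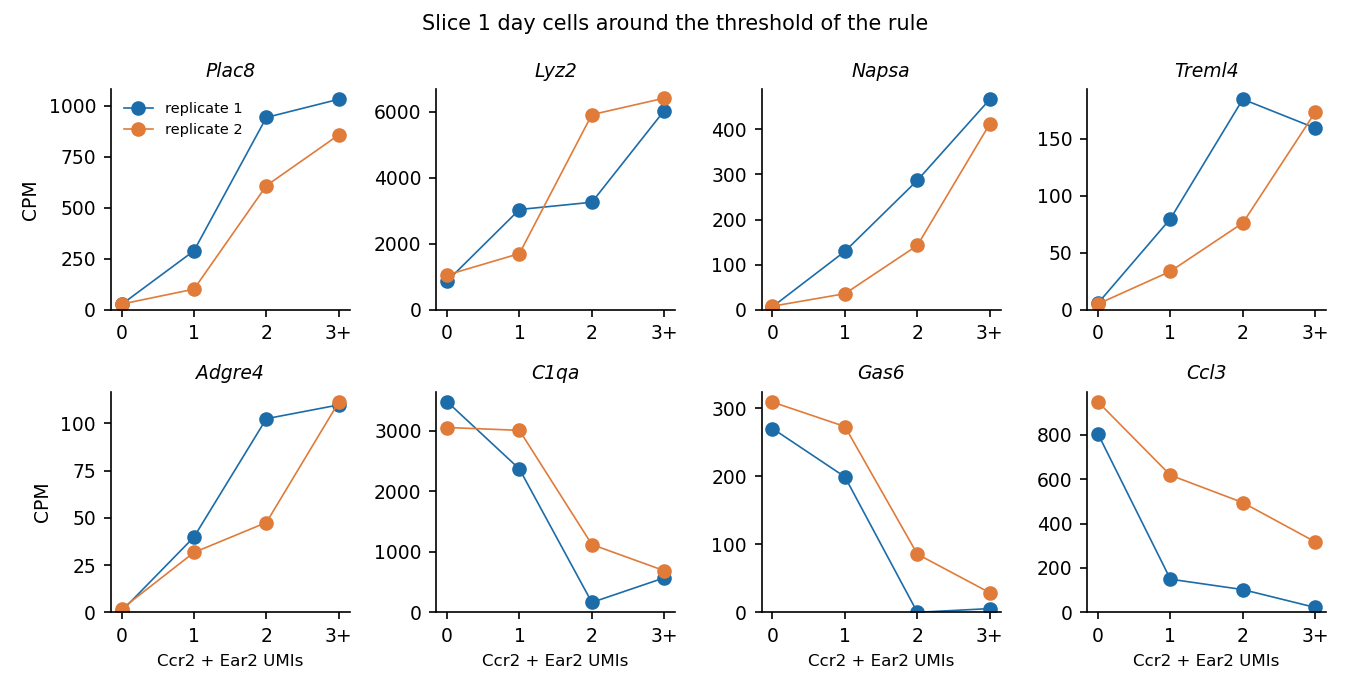
Level (y axis, CPM) of 8 genes in cells of the 1 day slices below the S100 limit by their number of Ccr2 and Ear2 UMIs (x axis, 0, 1, 2, and 3 or more), with a line for each of the 2 libraries. Plac8 reaches 943 and 608 CPM at 2 UMIs, where the rule begins, from 26.0 and 27.6 CPM at 0.

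The 2 Ccr2/Ear2 cells of later slices carried few of the genes higher in the 1 day cells. The 1 week cell had 3218 UMIs, with 3 of Ccr2, 7 of C1qa, 32 of Apoe, 3 of Lyz2, 2 of Itgal and 2 of S100a4. The 3 weeks cell had 6345 UMIs, with 2 of Ccr2, 12 of P2ry12, 3 of Tmem119, 56 of C1qa, 121 of Apoe and 14 of Lyz2. Neither held a UMI of Ear2, Plac8, Treml4 or Ace, and they are named here by the rule and not by a cell type.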

How the data were processed

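Single cells sorted from cultured brain slices, adult brain and mixed glial cultures were profiled with 10x Genomics 3′ chemistry. The deposited tables hold raw counts, UMIs per gene and cell, which the authors produced with Cell Ranger 1.3.0 on mm10, per the labels. Each table lists 10778 to 15457 genes, a gene missing from a table was taken as 0, and 13 repeated symbols were summed. Barcodes shared by libraries numbered 18 over the slice libraries and 2 between those of 1 day. Hemoglobin genes are not listed alike in all tables.

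The members and the gene lists were chosen with earlier results of these data known. Groups were taken from the labels, and the replicate numbers name libraries only. Cells were kept at no more than 5% mitochondrial UMIs, at least 400 genes and no more than 30000 UMIs. No doublet caller was run, and leaving out cells over the 95th percentile of UMIs was tried instead. The 1 day libraries, the only ones with at least 10 selected cells, gave levels. Counts were summed per class and library, and the log2 ratio of CPM was taken with 0.5 count added to both sums. Genes needed at least 10 counts over the selected cells or the subgroup, observed or expected from the comparison cells. Where the subgroups were set against each other, genes needed 30 counts over both. A call needed a difference past 2-fold in both libraries, and an error is the SD over these 2 libraries. The procedure was tested on simulated data. Named genes were those of the lists, the Ear genes, S100a8 and S100a9, the 15 highest and 10 lowest by median ratio among called genes with at least 50 counts (for lower genes, expected counts), and the 10 genes most correlated with Ccr2 and with Ear2 over cells. Cells were thinned to 2000 UMIs with a fixed seed, and shallower cells were left out. Shares have exact Clopper-Pearson 95% intervals, and a share of 0 has a limit of 3 counts. The study calls the samples of a group independent but does not say whether they came from separate animals, so part of the spread may be technical.

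A comparison of culture times by edgeR within the selected cells was planned and could not be run, since 1 time point alone had libraries with enough selected cells. Promoter windows came from RefSeq (GRCm38.p6), transcripts from GENCODE. Python 3.11.15, numpy 2.4.6, pandas 2.3.3 and scipy 1.17.1 were used.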

Additional observations from a re-analysis of the deposited data

How the results depend on the processing

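The counts of genes changed most with thinning. With each cell thinned to 2000 UMIs, 342 genes were higher and 156 lower, in place of 557 and 303 of 6313 genes considered. Thinned sums are smaller, so fewer genes could reach the minimum of 10 counts. Under the other alternatives run the counts stayed within 1.5 times the 557 and 303, at 481 to 612 higher and 268 to 395 lower, and 539 to 632 higher and 347 to 439 lower with either library left out. The shares of genes called under most alternatives, thinning included, are not given here, so the counts alone are compared. A limit of 0.1% on S100a8 and S100a9 left no selected cell in replicate 2 and gave no value. Among 54 named genes the log2 ratio moved by more than 1 SD over the libraries in 16 with comparison cells within the interquartile range of UMIs, 14 after thinning, 12 below the S100 limit, 10 with means over cells, 6 at 3 UMIs and at most 4 under each other setting. With 2 libraries, leaving 1 out cannot move the median past 1 SD, so the 0 found for that setting carries no information. Of the called genes it changed sign only for BC100530, below the S100 limit, from -3.74 to 0.054.

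The share of selected cells at 1 day was 3.67% and 2.76% with Ccr2 alone at 2 UMIs, 4.05% and 1.78% with Ear2 alone, 3.53% and 1.97% after thinning, and 9.66% in replicate 2 at 1 UMI. At 1 UMI it was 3.38% in 1 week replicate 1, 0.347% in 3 weeks replicate 1 and 0.241% in 3 weeks replicate 2. Without the S100 limit it was 2.03% in 1 week replicate 1. In 1 week replicate 1 it was 0 with Ear2 alone, after thinning, and for cells with at least 3 non-classical genes, a rule added after seeing the data. In 3 weeks replicate 1 it was 0 at 3 UMIs and with Ear2 alone. The smaller shares after thinning follow from fewer UMIs per cell. The cause of the other changes was not tested.

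Comparison cells below the S100 limit, an added count in proportion to the totals (501 higher, 374 lower) and leaving out the Mcpt8 cell were also added after seeing the data. The ratios of levels are taken within each library. No paired analysis was possible because, between culture times, the selected cells reached 10 only in the 1 day libraries, and the planned edgeR comparisons of times were not run for that reason.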

Other observations

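The same rule, applied outside the slices, took 5 and 4 cells of the adult libraries and 5 and 3 cells of the in vitro libraries, all with Ccr2 and without Ear2. None of these 17 cells held a UMI of Plac8, Treml4 or Ace. In the adult cells Cd74, the MHC class II invariant chain, was at 21312 and 25754 CPM, against 84.7 and 75.5 CPM in adult cells with 0 UMIs of both genes, and its UMIs came from 2 of 5 and 2 of 4 cells. P2ry12 was at 5251 and 6703 CPM in them against 7148 and 8451 CPM. No test was made of these few cells.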
